A study of Mus musculus with 12 samples.

Results

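The 33 genes described here mark T cells, natural killer (NK) cells and B cells, and they were followed in breast tumours of 12 mice. They were taken by gene symbol from a table of 55487 genes, and all 33 were found. The set holds 18 T cell genes, 11 genes of cytotoxic T and NK cells, 3 B cell genes and Ptprc, which encodes the leukocyte common antigen CD45. Every mouse was C57BL/6J and carried MMTV-PyMT, a transgene that expresses polyoma middle T, a viral oncogene, in mammary epithelium from the mouse mammary tumour virus promoter. In the 6 Bad_WT mice Bad was wild type. The 6 Bad3SA mice carried an allele whose protein BAD, a pro-apoptotic BCL2 family protein, has alanine in place of its regulatory serines and so cannot be phosphorylated there. The comparison asks how tumour RNA differs when that phosphorylation is blocked. Tumours were collected at end point, at 24.1 ± 1.94 weeks for Bad_WT and at 27.5 ± 2.85 weeks for Bad3SA (SD, n = 6 each). The range ran from 21.286 weeks (Bad_WT 6) to 31.143 weeks (Bad3SA 5). The immune system of these mice was their own, so RNA from lymphocytes is that of host cells in the tumour piece. Whether other cells also gave RNA of these genes was not tested.

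T cells recognise peptides on major histocompatibility molecules through the T cell receptor, which signals through the CD3 and zeta chains with help from the co-receptors CD4 or CD8. Cytotoxic T cells and NK cells kill by releasing perforin and granzymes, and NK cells are steered by activating and inhibitory surface receptors. B cells carry surface immunoglobulin coupled to the CD79 chains. In mammary tumours of the PyMT model lymphocytes are known to be far fewer than macrophages, and all of them are outnumbered by the epithelial tumour cells.

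Depth ran from 58096172 to 83296370 counts per tumour, and 3 counts corresponded to between 0.0346 and 0.0544 CPM (counts scaled to library size with TMM normalisation). Across genes, any pair of tumours had a Spearman correlation between 0.937 and 0.989. The tissue label was met by the epithelial markers: Epcam, Krt8 and Krt18 each had a mean above 1000 CPM. A changed codon leaves the Bad transcript in place, so RNA level gives no check of the genotype labels. Bad_WT 6 was low for most gene lists, the epithelial list included. Its mean log2 CPM was the lowest of the 12 tumours for 17 of the 18 gene lists examined, endothelial genes being the exception. Member log2 differences that moved by over 1.5 times without it are given both ways. In bulk RNA, fewer cells of a type and less RNA per cell cannot be told apart.

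Lymphocyte RNA was scarce in these tumours. The mean over 12 tumours was under 1 CPM for 20 of the 33 genes. Per kilobase of exon, Tcf7 had the highest level at 9.25 CPM, followed by Gzmb at 3.23, Lck at 2.18, Nkg7 at 2.16 and Gzma at 1.48 CPM per kilobase. The CD3 genes were lower on this scale, with Cd3d at 0.635, Cd3g at 0.559 and Cd3e at 0.195 CPM per kilobase. Foxp3 and Ms4a1 were the lowest, at 0.0253 and 0.0153 CPM per kilobase. Tcf7 and Lck are known mainly from T cells, yet both exceeded every CD3 gene per kilobase, and their pattern over tumours differed from that of the CD3 genes. Bcl11b, at 0.905 CPM per kilobase, lay above the CD3 genes too and did not follow Cd3e over tumours (r = 0.124). Which cells gave the RNA of Tcf7, Lck and Bcl11b was not tested.

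**Figure D1:**
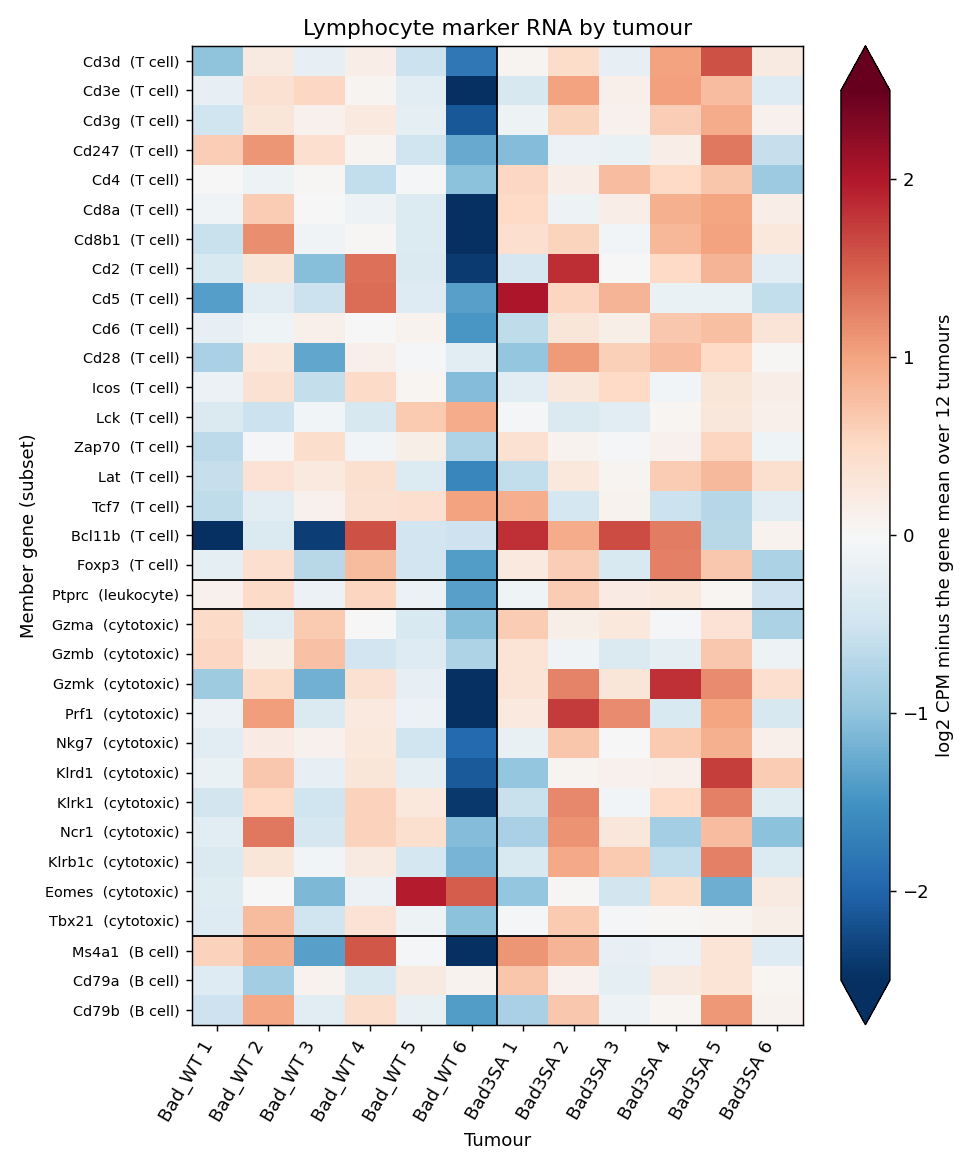
Each row is a member gene, each column a tumour, and the colour is log2 CPM minus the mean of that gene over 12 tumours (log2 units, colours saturate at the ends of the scale). Bad_WT 6 is blue for most T and cytotoxic genes and red for Lck, Tcf7 and Eomes.

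Most T and cytotoxic genes had higher fitted values in Bad3SA than in Bad_WT, but none of the 31 members tested passed the threshold between genotypes. Of 18019 genes tested with edgeR's quasi-likelihood test, 249 (1.38%) passed an adjusted p under 0.05, 0.622% higher and 0.760% lower in Bad3SA, and 0 of 31 members is near that share. The log2 fold change of Bad3SA relative to Bad_WT, called the log2 difference here, was above 0 for 26 of the 31 members, or 83.9%, against 50.4% of all genes. The median over members was 0.58 and over all genes 0.00326. By subset, 14 of 17 T genes were above 0 with a median of 0.59, 9 of 11 cytotoxic genes were above 0 with a median of 0.58, and both B genes tested were above 0 with a median of 0.32. Ptprc stood at 0.09. At an unadjusted p under 0.05, 3 members were higher in Bad3SA (Cd3d, Cd4 and Gzmk), against 7.18% of all genes, and no member was lower. The CPM ranges of the genotypes overlapped for every member, while they did not overlap for 2.23% of all genes tested. The members share cells and tumours, so they are not independent of each other.

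These medians rested in part on Bad_WT 6 and Bad3SA 5. Without Bad_WT 6 the T median was 0.36 and the cytotoxic median 0.37, and without Bad3SA 5 they were 0.48 and 0.19. Without both tumours, a choice made after their values were seen, the medians were 0.26 for T genes, 0.06 for cytotoxic genes and 0.13 for B genes. Under limma voom with quality weights, which gives less weight to tumours that stand apart, the medians were 0.36, 0.16 and 0.16.

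**Figure D2:**
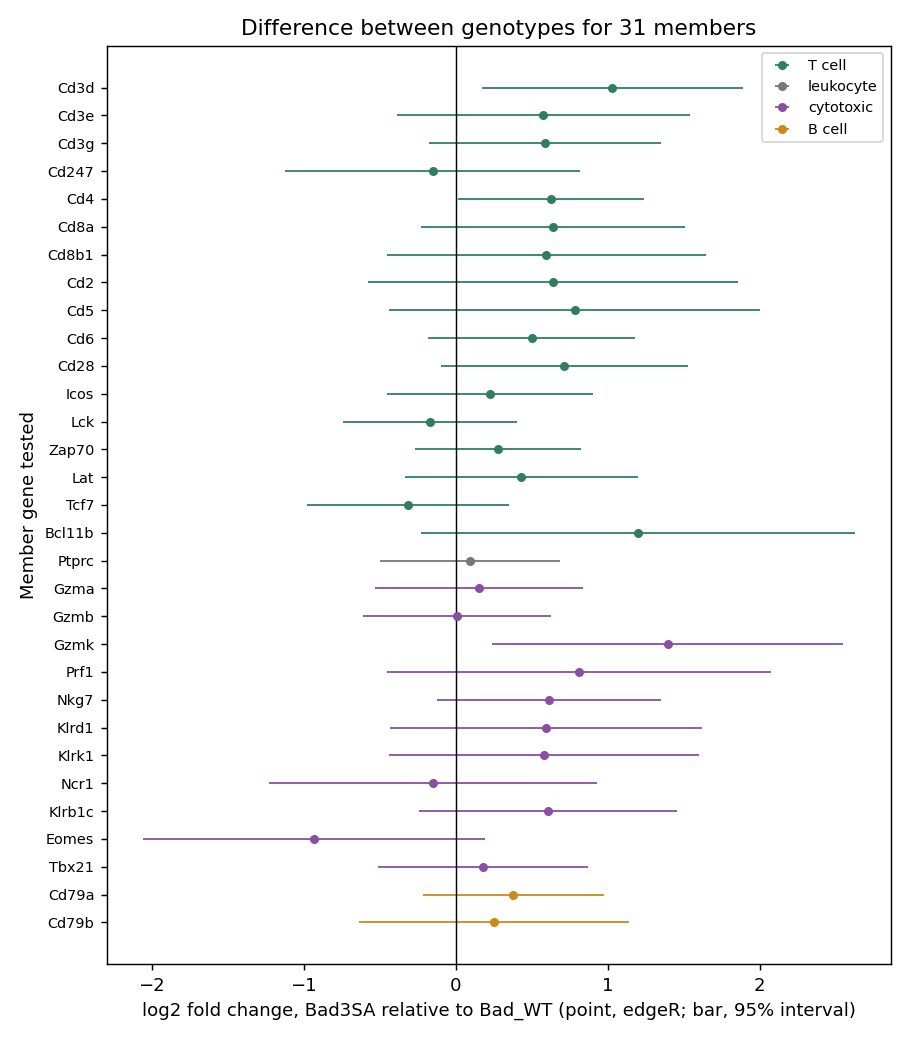
Points give the edgeR log2 difference of Bad3SA relative to Bad_WT for the 31 members tested, and bars give the 95% interval, with colours for the T, leukocyte, cytotoxic and B subsets. The intervals of Cd3d, Cd4 and Gzmk lie above 0 before adjustment, and those of the other 28 members include it.

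The CD3 chains, the invariant signalling part of the T cell receptor, were higher in Bad3SA by fitted value, and Cd3d showed the clearest separation. Cd3d (ENSMUSG00000032094, GRCm38 chromosome 9, 44981786 to 44987339) had a lowest value of 0.278, a median of 0.762 and a highest value of 1.14 CPM in Bad_WT. In Bad3SA the corresponding values were 0.846, 1.25 and 2.96 CPM. All 6 Bad3SA tumours lay above the Bad_WT median and 3 lay above its highest tumour, so the groups overlapped. The means were 0.756 ± 0.342 and 1.55 ± 0.792 CPM (SD, n = 6 each), a 2.04-fold difference (95% interval 1.13 to 3.70). The log2 difference was 1.03 (SE 0.40, edgeR adjusted p = 0.236). It was 0.57 without Bad_WT 6 and Bad3SA 5, and 0.58 under limma voom.

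Cd3e (ENSMUSG00000032093, chromosome 9, 44998740 to 45009627) ran from 0.0980 over a median of 0.650 to 0.973 CPM in Bad_WT. In Bad3SA it ran from 0.514 over 0.951 to 1.40 CPM. Bad_WT 6 was the lowest tumour, with the other 11 at or above 0.514 CPM, and the remaining values were interleaved. The log2 difference was 0.58 (SE 0.45, edgeR adjusted p = 0.524), and 0.35 without Bad_WT 6. Cd3g (ENSMUSG00000002033, chromosome 9, 44969572 to 44980431) ran from 0.376 over 1.60 to 2.04 CPM in Bad_WT and from 1.52 over 2.10 to 3.14 CPM in Bad3SA. Its log2 difference was 0.59 (SE 0.35, edgeR adjusted p = 0.418), and 0.39 without Bad_WT 6. Both genes thus had Bad_WT 6 well below all other tumours. Cd247, which encodes the zeta chain, did not share the direction: its median was 0.899 CPM in Bad_WT and 0.674 CPM in Bad3SA. Its log2 difference was -0.15 (SE 0.45, edgeR adjusted p = 0.884). In GENCODE release 21, 56.4% of the exonic bases of Cd247 (3007 bases) lie within exons of Pou2f1 on the other strand, and the sources used here do not give whether counting used strand. If it did not, reads from the shared bases cannot be told apart. The log2 difference of Cd247 was -0.33 without Bad_WT 6.

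The 3 CD3 genes lie side by side, and their promoters are shown because Cd3d, Cd3g and Cd3e varied together over tumours while Lck and Tcf7 did not. Cd3d and Cd3g are transcribed away from each other from starts 1355 bases apart, and the start of Cd3e lies 27825 bases from that of Cd3d. The lines give the 250 bases before the start site from RefSeq (GRCm38.p6), 5′ to 3′ on the gene's strand. Capitals mark matches to 5 short motifs on either strand, none of which overlap in the windows shown. The RUNX motif was searched as TGTGGT. The ETS motif was searched as AGGAAG. The E-box was searched as CAGGTG. The TCF/LEF motif was searched as CTTTGA. The GATA motif was searched as AGATAA. A match is a description of letters and not evidence of binding.
Cd3d, chr9:44981536-44981785, plus strand: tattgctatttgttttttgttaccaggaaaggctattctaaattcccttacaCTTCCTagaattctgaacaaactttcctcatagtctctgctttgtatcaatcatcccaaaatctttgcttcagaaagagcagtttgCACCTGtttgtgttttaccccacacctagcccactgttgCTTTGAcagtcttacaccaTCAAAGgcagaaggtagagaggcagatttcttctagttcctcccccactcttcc
Cd3g, chr9:44980432-44980681, minus strand: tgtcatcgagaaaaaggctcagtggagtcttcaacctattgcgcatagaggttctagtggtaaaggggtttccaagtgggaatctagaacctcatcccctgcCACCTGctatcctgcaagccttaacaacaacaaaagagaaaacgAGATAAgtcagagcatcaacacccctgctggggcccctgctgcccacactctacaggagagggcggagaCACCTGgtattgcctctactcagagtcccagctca
Cd3e, chr9:45009612-45009861, minus strand: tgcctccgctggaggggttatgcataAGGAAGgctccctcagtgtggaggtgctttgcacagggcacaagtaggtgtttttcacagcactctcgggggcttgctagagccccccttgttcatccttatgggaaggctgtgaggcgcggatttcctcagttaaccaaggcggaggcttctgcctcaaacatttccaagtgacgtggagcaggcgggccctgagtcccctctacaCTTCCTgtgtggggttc
Lck, upstream start, chr4:129573642-129573891, minus strand: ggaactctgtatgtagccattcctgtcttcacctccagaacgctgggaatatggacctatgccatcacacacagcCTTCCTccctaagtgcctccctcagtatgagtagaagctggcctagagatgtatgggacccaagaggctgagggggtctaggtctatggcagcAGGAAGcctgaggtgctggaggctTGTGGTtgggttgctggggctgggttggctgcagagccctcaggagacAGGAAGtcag
Lck, downstream start, chr4:129558373-129558622, minus strand: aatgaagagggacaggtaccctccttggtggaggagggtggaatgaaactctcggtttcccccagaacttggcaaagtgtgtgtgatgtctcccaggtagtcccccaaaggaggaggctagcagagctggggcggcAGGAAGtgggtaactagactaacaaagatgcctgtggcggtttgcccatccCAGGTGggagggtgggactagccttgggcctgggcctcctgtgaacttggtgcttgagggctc
Tcf7, upstream start, chr11:52283015-52283264, minus strand: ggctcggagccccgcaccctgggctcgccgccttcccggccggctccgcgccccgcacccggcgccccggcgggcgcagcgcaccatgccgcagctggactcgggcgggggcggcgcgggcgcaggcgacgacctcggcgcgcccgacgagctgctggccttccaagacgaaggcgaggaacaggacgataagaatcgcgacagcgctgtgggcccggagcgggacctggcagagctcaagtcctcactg
The Cd3d window held no CG dinucleotide and matches to ETS, E-box and TCF/LEF. The Cd3g window held E-box and GATA matches, and the Cd3e window ETS matches alone. No motif of the 5 was common to all 3 CD3 windows. The upstream Tcf7 window held 37 CG dinucleotides, against a median of 4 over the member windows and 6 over all windows. A second Tcf7 window in RefSeq, further downstream and not shown, held 15, and both lacked all 5 motifs. From its first ATG, the upstream Tcf7 window reads as an open frame, without a stop codon, to its last base. That window may therefore hold coding sequence, and its CG count need not describe a promoter. RefSeq windows were matched for 24 of the 33 members, giving 31 windows among 32851. The ETS motif was in 54.8% of member windows and 29.5% of all windows, RUNX in 32.3% and 14.0%, and E-box in 35.5% and 17.2%. TCF/LEF was in 16.1% and 13.8% and GATA in 9.68% and 9.99%. Several windows belong to the same gene and overlap.

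The co-receptors were higher in Bad3SA by fitted value, and Cd4, which marks helper and regulatory T cells, varied least among them. Cd4 (ENSMUSG00000023274, chromosome 6, 124864692 to 124888221) had a lowest value of 1.73, a median of 3.31 and a highest value of 3.59 CPM in Bad_WT. In Bad3SA the values were 1.88, 5.00 and 6.01 CPM. Bad3SA 6 was the low value, and the other 5 Bad3SA tumours lay above every Bad_WT tumour. The means were 2.97 ± 0.767 and 4.59 ± 1.51 CPM (SD, n = 6 each), with a log2 difference of 0.63 (SE 0.28, edgeR adjusted p = 0.299). The value stayed between 0.51 and 0.79 when each tumour was left out in turn. Cd8a and Cd8b1, the chains of CD8 on cytotoxic T cells, are neighbours on chromosome 6 (71373427 to 71379173 and 71322788 to 71337494). Cd8a ran from 0.359 over 2.14 to 3.59 CPM in Bad_WT and from 2.10 over 2.92 to 4.54 CPM in Bad3SA. Its log2 difference was 0.64 (SE 0.40, edgeR adjusted p = 0.435), and 0.42 without Bad_WT 6. For Cd8b1 the log2 difference was 0.59 (SE 0.49, adjusted p = 0.544), and 0.36 without Bad_WT 6. Its lowest value, 0.0817 CPM in Bad_WT 6, and its highest, 1.85 CPM in Bad_WT 2, both fell in Bad_WT.

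**Figure D3:**
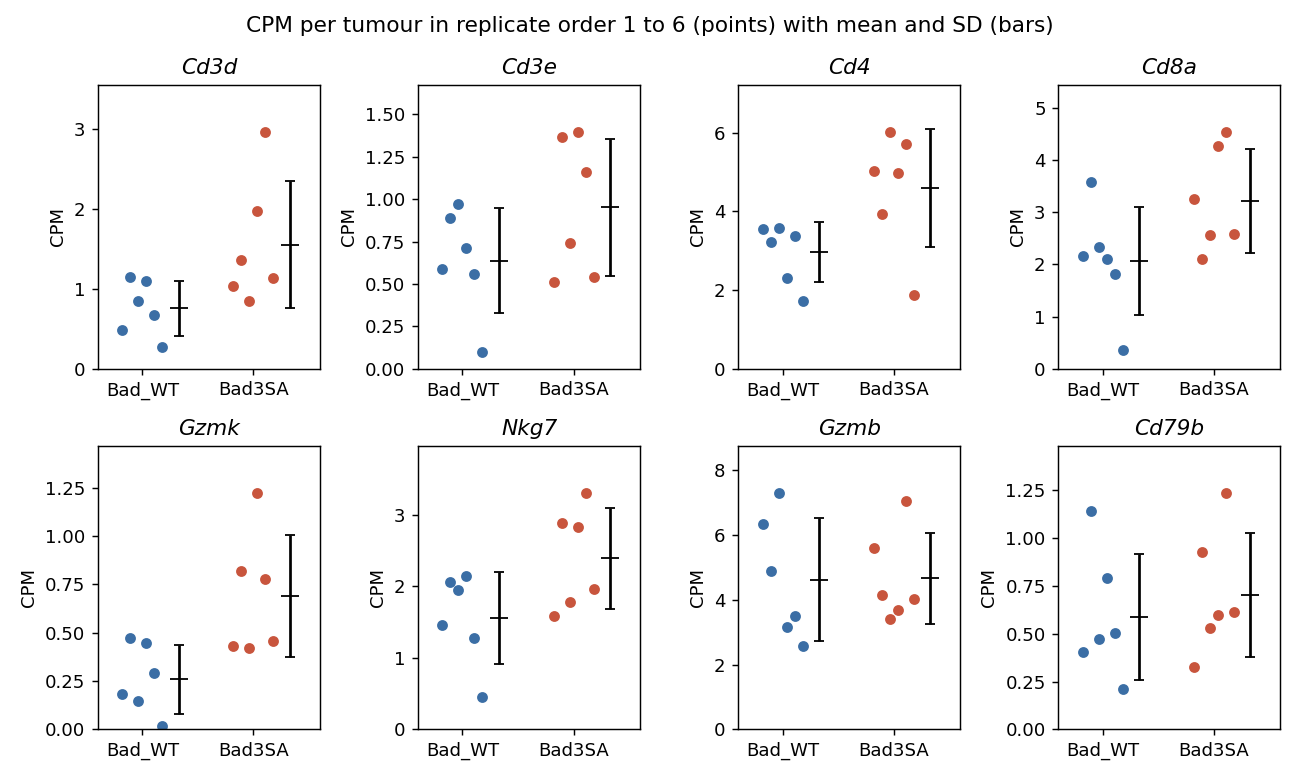
Each panel plots CPM of a gene in the 6 Bad_WT tumours (blue) and the 6 Bad3SA tumours (red), with the mean and SD as bars. For Cd4, 5 Bad3SA tumours lie above every Bad_WT tumour, while for Gzmb and Cd79b the groups lie over the same range.

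The adhesion and costimulatory receptors had positive fitted values with wide errors. Cd2 encodes an adhesion receptor, Cd5 and Cd6 encode scavenger-receptor family proteins that tune receptor signalling, and Cd28 and Icos encode costimulatory receptors. Cd6 ran from 0.147 over 0.405 to 0.462 CPM in Bad_WT and from 0.271 over 0.527 to 0.708 CPM in Bad3SA. As with Cd4, 5 of 6 Bad3SA tumours lay above every Bad_WT tumour, Bad3SA 1 being the exception. The fitted log2 difference was 0.50 (SE 0.32, edgeR adjusted p = 0.439). Cd28 had 4 of 6 Bad3SA tumours above the highest Bad_WT tumour and a log2 difference of 0.72 (SE 0.38, adjusted p = 0.367). Cd2 and Cd5 were set by single tumours. The Cd2 value was 0.64 over all tumours, 0.20 without Bad3SA 2 and 1.20 without Bad_WT 4. The Cd5 value was 0.78 over all tumours, 0.23 without Bad3SA 1 and 1.42 without Bad_WT 4. Icos, averaging 0.143 ± 0.0556 CPM in the Bad_WT tumours and 0.168 ± 0.0321 CPM in the Bad3SA tumours (SD, n = 6 each), differed least of these 5 genes. For Icos the log2 difference was 0.22, and 0.08 without Bad_WT 6, while that of Cd2 was 0.42 without Bad_WT 6.

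The proximal signalling genes did not move as a unit. Lck encodes the kinase that phosphorylates the CD3 and zeta chains, Zap70 the kinase recruited to them, and Lat the membrane adaptor that Zap70 phosphorylates. Lat ran from 0.278 over 0.867 to 1.16 CPM in Bad_WT and from 0.568 over 1.11 to 1.54 CPM in Bad3SA, with a log2 difference of 0.43 (SE 0.36, edgeR adjusted p = 0.547), and 0.25 without Bad_WT 6. Zap70 differed less, with a log2 difference of 0.28 (SE 0.25, adjusted p = 0.590), and 0.17 without Bad_WT 6. Lck was at 4.22, 5.28 and 11.6 CPM (lowest, median and highest) in Bad_WT and at 4.78, 6.09 and 7.40 CPM in Bad3SA. Its highest tumour was Bad_WT 6, where the CD3 genes were lowest. The log2 difference of Lck was -0.17 (SE 0.27, adjusted p = 0.766), and 0.05 without Bad_WT 6.

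Among the transcription factors, Bcl11b was the most variable member and Tcf7 was highest in Bad_WT 6, the lowest tumour for Cd3e. Bcl11b, required for T cell commitment, ran from 0.635 over 3.42 to 14.6 CPM in Bad_WT and from 2.99 over 10.4 to 17.2 CPM in Bad3SA. Bad_WT 4 was high and Bad_WT 1 and 3 were low, and the log2 difference was 1.20 (SE 0.66, edgeR adjusted p = 0.382). It was 2.08 without Bad_WT 4 (adjusted p = 0.0852). Bcl11b was also the only member called by any test run here, with a log2 difference of 2.34 under limma voom with quality weights (adjusted p = 0.0457), a test that called 3.21% of all genes. Its correlation with Cd3e over tumours was 0.12, and the cells that gave its RNA were not identified. Tcf7, which encodes TCF1 of naive and memory T cells, ran from 14.4 over 26.7 to 45.0 CPM in Bad_WT and from 13.6 over 17.4 to 41.9 CPM in Bad3SA. Bad_WT 6 and Bad3SA 1 were the high tumours, and the log2 difference was -0.31 (SE 0.31, edgeR adjusted p = 0.617). It was -0.11 without Bad_WT 6 and -0.63 without Bad3SA 1 (unadjusted p = 0.0336, edgeR adjusted p = 0.274). Foxp3, the factor of regulatory T cells, summed to 43 counts in Bad_WT and 56 in Bad3SA, too few to pass the filter. Without the filter its log2 difference was 0.49 (edgeR adjusted p = 0.604). Foxp3 shares 18.6% of its exonic bases with Flicr on the same strand. On the other strand it shares 12.9% with Ccdc22, 8.15% with Gm36995 and 5.81% with Ppp1r3f.

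Ptprc, which all leukocytes express, had nearly the same level in both genotypes. It ran from 8.49 over 21.7 to 31.9 CPM in Bad_WT and from 15.2 over 23.8 to 33.7 CPM in Bad3SA. The low tumours were Bad_WT 6 and Bad3SA 6, and the log2 difference was 0.09 (SE 0.27, edgeR adjusted p = 0.881), and -0.08 without Bad_WT 6.

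Among the cytotoxic granule genes, Gzmk stood apart from Gzma and Gzmb. Gzmk encodes granzyme K, a tryptase-like granzyme made by memory-type CD8 T cells. Gzmk (ENSMUSG00000042385, chromosome 13, 113171608 to 113225908) ran from 0.0163 over 0.239 to 0.473 CPM in Bad_WT and from 0.423 over 0.620 to 1.22 CPM in Bad3SA. All 6 Bad3SA tumours lay above the Bad_WT median and 3 lay above its highest tumour. Bad_WT 6, the lowest, held 1 count. The means were 0.260 ± 0.179 and 0.689 ± 0.316 CPM (SD, n = 6 each), and the log2 difference was 1.39 (SE 0.54, edgeR adjusted p = 0.236), or 2.63-fold (95% interval 1.18 to 5.86). It stayed between 1.15 and 1.66 when each tumour was left out in turn. In the authors' deposited table Gzmk had the smallest adjusted p of the members, 0.0991, with a log2 difference of 1.02 toward Bad3SA.

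Gzmb and Gzma, the granzymes of effector cells, differed little. Gzmb ran from 2.56 over 4.19 to 7.30 CPM in Bad_WT and from 3.41 over 4.10 to 7.06 CPM in Bad3SA. Between genotypes the log2 difference was 0.01 (SE 0.29, edgeR adjusted p = 0.990), with a 95% interval from -0.61 to 0.63. Gzma had a log2 difference of 0.15 (SE 0.32, adjusted p = 0.828). Without Bad_WT 6 the values were -0.11 for Gzmb and 0.01 for Gzma. Prf1, which encodes perforin, averaged 0.382 ± 0.257 CPM in the Bad_WT tumours and 0.675 ± 0.405 CPM in the Bad3SA tumours (SD, n = 6 each). The fitted log2 difference was 0.81 (SE 0.59, adjusted p = 0.495), and 0.50 without Bad3SA 2. Bad_WT 6 again held 1 count. Nkg7, a granule membrane protein gene of cytotoxic cells, ran from 0.457 over 1.70 to 2.14 CPM in Bad_WT and from 1.58 over 2.39 to 3.30 CPM in Bad3SA. The log2 difference of Nkg7 was 0.61 (SE 0.34, edgeR adjusted p = 0.386), and 5 of 6 Bad3SA tumours lay above the Bad_WT median.

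Among the NK receptor genes, Bad3SA 5 was the highest tumour for Klrd1, Klrk1 and Klrb1c, and Bad_WT 2 was the highest for Ncr1. Klrd1 encodes CD94, Klrk1 encodes NKG2D, Klrb1c encodes NK1.1 and Ncr1 encodes NKp46. Klrd1 ran from 0.131 over 0.518 to 0.946 CPM in Bad_WT and from 0.298 over 0.638 to 1.98 CPM in Bad3SA. Between genotypes the log2 difference was 0.60 (SE 0.48, edgeR adjusted p = 0.536), and 0.14 without Bad3SA 5. Klrk1 stood at 0.58 (SE 0.47, adjusted p = 0.541) and Klrb1c at 0.61 (SE 0.39, adjusted p = 0.448), and both were 0.37 without Bad3SA 5. Without Bad_WT 6 the values were 0.39 for Klrd1 and 0.37 for Klrk1. Klrb1c shares 13.9% of its exonic bases with Gm44511 on the same strand. Ncr1, the most NK-restricted of these receptors, averaged 0.183 ± 0.113 CPM in the Bad_WT tumours and 0.166 ± 0.108 CPM in the Bad3SA tumours (SD, n = 6 each), with a log2 difference of -0.15 (SE 0.50, adjusted p = 0.897). That sign turned to 0.22 without Bad_WT 2, and the value was -0.32 without Bad_WT 6.

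Eomes and Tbx21 encode the T-box factors of cytotoxic T and NK cells. Eomes ran from 0.255 over 0.536 to 2.22 CPM in Bad_WT and from 0.236 over 0.490 to 0.768 CPM in Bad3SA. Bad_WT 5 and Bad_WT 6 were the high tumours. The log2 difference, -0.93 (SE 0.52, edgeR adjusted p = 0.387), was -0.47 without Bad_WT 5. Tbx21, which encodes T-bet, had a log2 difference of 0.18 (SE 0.32, adjusted p = 0.798), and 0.04 without Bad_WT 6.

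B cell genes rested on few counts and did not differ detectably. Ms4a1, which encodes CD20, summed to 43 counts in Bad_WT and 40 in Bad3SA, with none in Bad_WT 6, where a count of 0 allows up to 0.0490 CPM (3 counts, counting error only). It did not pass the filter, and without the filter its log2 difference was -0.02 (edgeR adjusted p = 0.990). Cd79a and Cd79b encode the signalling chains of the B cell receptor. Cd79a ran from 0.115 over 0.200 to 0.252 CPM in Bad_WT and from 0.181 over 0.241 to 0.352 CPM in Bad3SA. The fitted log2 difference was 0.38 (SE 0.28, edgeR adjusted p = 0.498). Over 298 bases its transcript is 98.7% identical to Gm32220, so reads there could be split. Cd79b averaged 0.588 ± 0.330 CPM in the Bad_WT tumours and 0.704 ± 0.324 CPM in the Bad3SA tumours (SD, n = 6 each), with a log2 difference of 0.25 (SE 0.41, adjusted p = 0.774). It was 0.02 without Bad3SA 5 and 0.08 without Bad_WT 6. Although these chains form a pair, their correlations with Cd3e differed, at 0.77 for Cd79b and -0.07 for Cd79a. Cd79a held from 10 counts (Bad_WT 2) to 26 counts (Bad3SA 1), so its correlation carries counting error. The correlation of the chains with each other was not tested.

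Across the 12 tumours most members had a positive correlation with Cd3e by Pearson's r, and Tcf7 had a negative one. In the planned family of 9 relations, Nkg7 followed Cd3e most closely (Pearson r = 0.959, permutation p = 9e-05, Benjamini-Hochberg adjusted p = 0.00081; Spearman rho = 0.797, permutation p = 0.0029, adjusted p = 0.0261). Nkg7 was at r = 0.836 without Bad_WT 6 and Bad3SA 4, the tumours farthest from the median of Cd3e, at 0.977 within Bad_WT and at 0.899 within Bad3SA. The relation of Cd8a (r = 0.866, permutation p = 0.00748, adjusted p = 0.0224; rho = 0.427, permutation p = 0.172, adjusted p = 0.258) rested on those tumours, with r = 0.254 without them. The same held for Cd4 (r = 0.634, permutation p = 0.0184, adjusted p = 0.0333; rho = 0.510, permutation p = 0.0948, adjusted p = 0.185), with r = 0.315 without them. Csf1r, a macrophage gene, was also related to Cd3e (r = 0.721, permutation p = 0.00695, adjusted p = 0.0224; rho = 0.517, permutation p = 0.0877, adjusted p = 0.185), with r = 0.541 without them. Ncr1 (r = 0.508, adjusted p = 0.0935 by permutation), Ms4a1 (r = 0.644, adjusted p = 0.0838 by permutation), Cd79a (r = -0.0651) and the epithelial gene Epcam (r = 0.188) did not pass. Without the farthest tumours r was 0.674 for Ncr1, -0.0482 for Ms4a1, -0.11 for Cd79a and 0.527 for Epcam, close to that of Csf1r.

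Over every other member, a family of 32 relations chosen after the data were seen, 28 had a positive r. By r 23 passed, among them Tcf7 and Lck with a negative r, but only Cd3g and Nkg7 passed by rho. Cd3g had r = 0.955, and 0.802 without the farthest tumours. Without those tumours r was above 0.5 for 14 of the 32 members, 7 of them T genes and 5 of them cytotoxic. Tcf7 had r = -0.713 (permutation p = 0.00358, adjusted p = 0.00965; rho = -0.664, permutation p = 0.0218, adjusted p = 0.0683) and kept the sign without those tumours, at -0.520, and within each genotype, at -0.687 in Bad_WT and -0.750 in Bad3SA. For Lck, r was -0.626 (permutation p = 0.0338, adjusted p = 0.0470; rho = -0.322, permutation p = 0.307, adjusted p = 0.378) and -0.248 without those tumours, so it rested on them. Eomes (r = -0.504, permutation p = 0.106, adjusted p = 0.123) and Bcl11b (r = 0.124) did not pass. Gzmb (r = 0.479, permutation p = 0.108, adjusted p = 0.123) did not pass either. Nor did Gzma (r = 0.593, permutation p = 0.0406, adjusted p = 0.0541). Both granzyme genes lay above the CD3 genes per kilobase, and which cells gave their RNA was not tested.

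**Figure D4:**
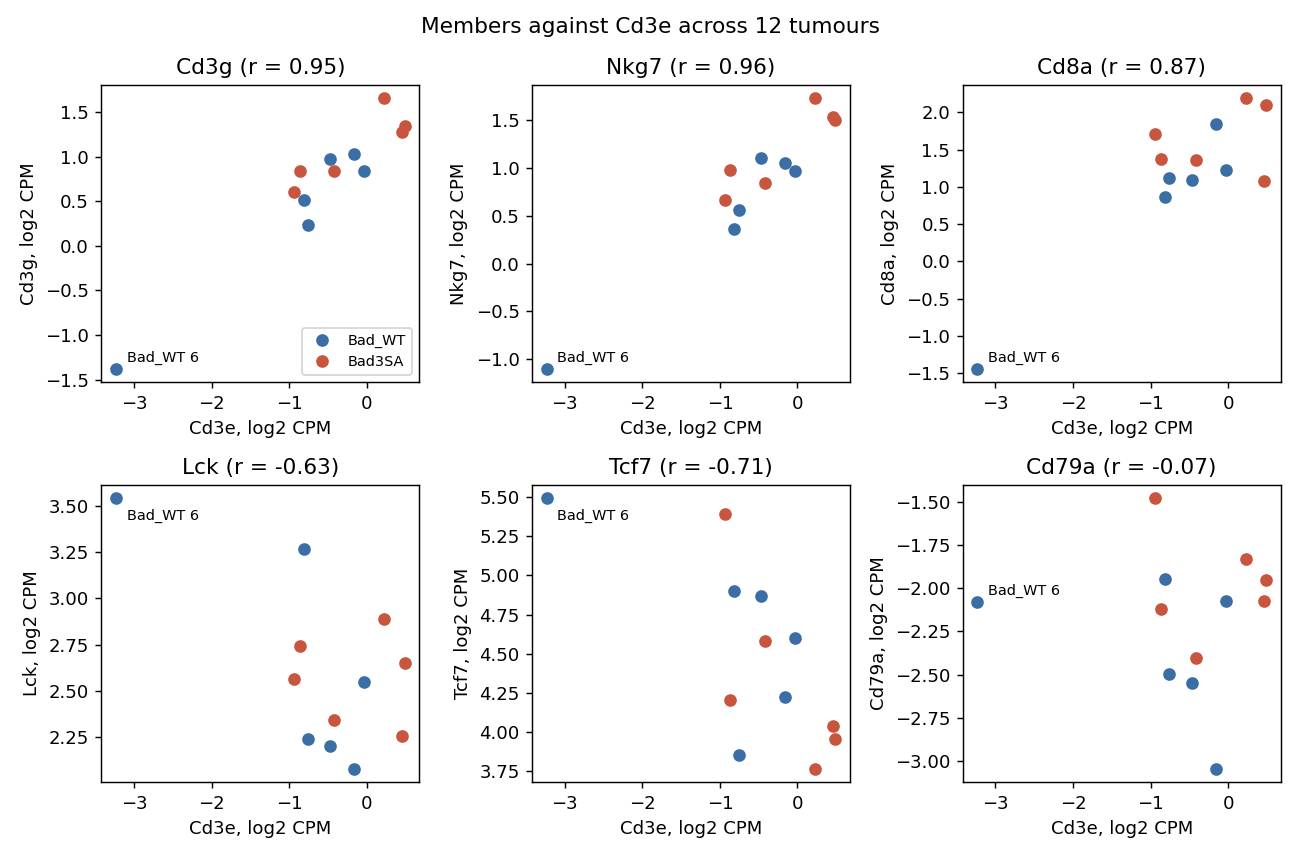
Each panel plots log2 CPM of a gene against log2 CPM of Cd3e in 12 tumours, with Bad_WT in blue and Bad3SA in red, and gives Pearson's r. Bad_WT 6 lies far to the left of the other 11 tumours in all panels, low for Cd3g, Nkg7 and Cd8a and high for Lck and Tcf7.

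The make-up of the lymphocyte RNA, taken as the log2 ratio of each of 8 members to Cd3e within a tumour, did not differ detectably between genotypes. The largest difference was for Ncr1, at -1.69 ± 0.875 in Bad_WT and -2.60 ± 0.773 in Bad3SA (SD, n = 6 each), with a Bad3SA minus Bad_WT value of -0.91 (two-sided exact permutation p = 0.0909, adjusted over the 8 ratios 0.727). All 6 Bad3SA tumours lay below the Bad_WT median for it, and the difference stayed between -1.19 and -0.62 when each tumour was left out. The Gzmb ratio differed by -0.67 (exact permutation p = 0.197, adjusted p = 0.788). For Cd8a, Cd4, Foxp3, Nkg7, Ms4a1 and Cd79a the differences were 0.12, -0.15, -0.20, -0.02, -0.19 and -0.35, each smaller than the SD of the ratio in the Bad_WT tumours. The smallest exact p this design allows is 0.00216. Cd3e, the denominator, held 6 counts in Bad_WT 6, the highest tumour for the Cd4, Foxp3, Gzmb, Nkg7, Ncr1 and Cd79a ratios. Ncr1 held from 4 counts (Bad_WT 6) to 33 counts (Bad_WT 2), so these ratios carry counting error.

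Age at end point also moved with these genes. Age correlated with Cd3e (r = 0.644, permutation p = 0.0185, adjusted p = 0.0333; rho = 0.613, permutation p = 0.0382, adjusted p = 0.172), with r = 0.602 without the farthest tumours, 0.769 within Bad_WT and 0.446 within Bad3SA. Age and genotype were themselves correlated, at r = 0.608, and Bad_WT 6, low for most members, was the youngest mouse, while Bad3SA 5, high for many, was the oldest. With both age and genotype in the edgeR model, the slope with age was above 0 for 24 of 31 members, against 51.6% of all genes. It had an unadjusted p under 0.05 for 12 of 31 members, against 8.44% of all genes, but no member and no gene of the 18019 passed after adjustment. The steepest slopes were those of Klrd1 (0.33 log2 units per week, unadjusted p = 0.000241, edgeR adjusted p = 0.583), Ncr1 (0.29) and Cd79b (0.28, unadjusted p = 0.000253, edgeR adjusted p = 0.583). Tcf7 had a negative slope of -0.18 (unadjusted p = 0.00256, edgeR adjusted p = 0.583).

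With age in the model, the genotype differences shrank or turned for most members. The T median was 0.17, with 13 of 17 genes above 0, and the cytotoxic median was -0.18, with 4 of 11 above 0. The B median was 0.01, and Ptprc was at -0.18. Cd4 hardly moved, from 0.63 to 0.61, and Cd5 and Bcl11b moved up to 1.02 and 1.42. Cd247 moved from -0.15 to -1.04 (unadjusted p = 0.0288, edgeR adjusted p = 0.542) and Ncr1 from -0.15 to -1.10 (unadjusted p = 0.0368, edgeR adjusted p = 0.588). Cd3d went from 1.03 to 0.44 and Gzmk from 1.39 to 0.94. Klrd1 turned from 0.60 to -0.58 and Cd79b from 0.25 to -0.65. In all, 12 of 31 members changed sign, and no member was called in either model. The age model called 0.405% of all genes.

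**Figure D5:**
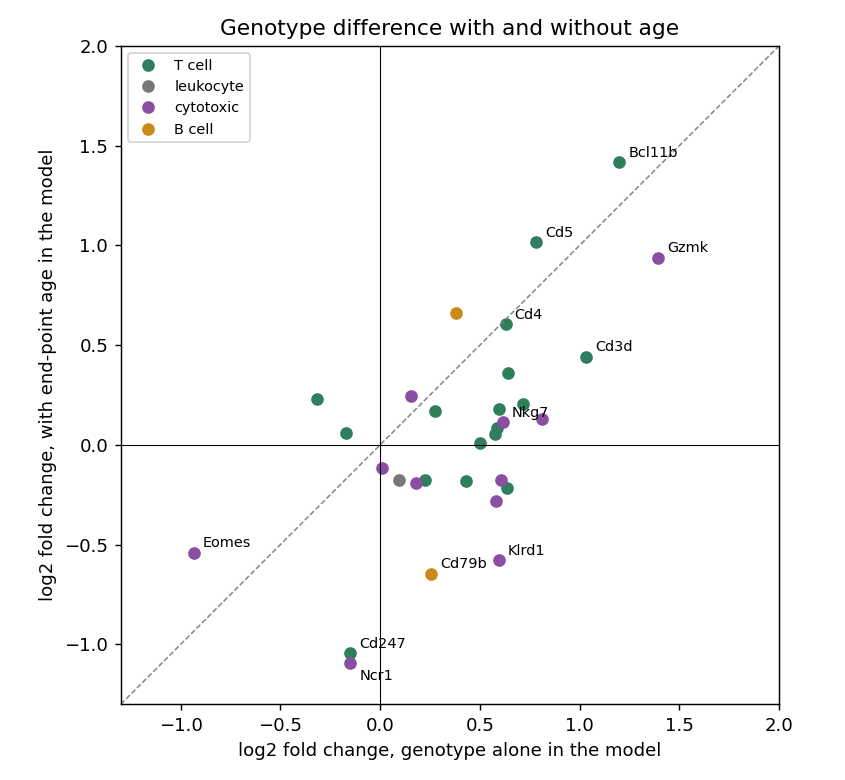
Each point is a member, with the log2 difference from genotype alone on the x axis and from genotype plus end-point age on the y axis, and the dashed line marks equal values. Most points lie below the line, Cd4 lies on it, and Klrd1 and Cd79b lie below 0 on the y axis.

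The remaining genes of T cell receptor signalling, taken from a list of 19, showed the same absence of calls. None passed, 13 of 19 were above 0 and the median log2 difference was 0.24, against 0.00326 over all genes. The smallest p values were those of Sh2d1a, which encodes the adaptor SAP (1.21, SE 0.61, edgeR adjusted p = 0.341), and Fyb, which encodes the adaptor ADAP (-0.38, SE 0.21, adjusted p = 0.379). Genes of T cell state, such as homing, activation and exhaustion, had a median of 0.02 over 17 tested, with none called. Within them Lef1, a partner of Tcf7 in naive T cells that mammary epithelium can also express, was lower in all 6 Bad3SA tumours than the Bad_WT median, averaging 3.52 ± 2.69 CPM in the Bad_WT tumours and 0.985 ± 0.341 CPM in the Bad3SA tumours (SD, n = 6 each). Lef1 ran from 1.11 to 8.22 CPM in Bad_WT, with the highest value in Bad_WT 6. In Bad3SA it ran from 0.561 to 1.51 CPM, so the groups overlapped. Between genotypes the log2 difference was -1.84 (SE 0.47, edgeR adjusted p = 0.0812).

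Further cytotoxic genes had a median of 0.24 over 19 tested, 16 of them above 0 and none called. Cd160, a receptor of NK and CD8 T cells, averaged 0.293 ± 0.0897 CPM in the Bad_WT tumours and 0.622 ± 0.293 CPM in the Bad3SA tumours (SD, n = 6 each), a log2 difference of 1.07 (SE 0.35, edgeR adjusted p = 0.169). Klrc1, which encodes the NKG2A partner of CD94, stood at 0.64 (SE 0.30, adjusted p = 0.318). All 6 Bad3SA tumours lay above the Bad_WT median for both. Of the genes of gamma-delta and innate-like T cells, 4 were tested and 1 was above 0. Zbtb16, which encodes PLZF, had a log2 difference of -1.02 (SE 0.37, edgeR adjusted p = 0.208).

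Further B cell genes had a median of 0.24 over 14 tested, 11 of them above 0 and none called. Fcmr, which encodes the IgM Fc receptor, came closest to the threshold of all the genes in these lists. It ran from 0.220 to 0.923 CPM in Bad_WT and from 0.556 to 2.79 CPM in Bad3SA, with all 6 Bad3SA tumours above the Bad_WT median and a log2 difference of 1.92 (SE 0.45, edgeR adjusted p = 0.0587). Cd72, a B cell co-receptor, had a log2 difference of -0.54 (SE 0.17, adjusted p = 0.162). Plasma cell genes had a median of 0.03 over 6 tested, with Prdm1 at -0.64 (SE 0.28, adjusted p = 0.284) and the light chain gene Igkc at 0.86 (SE 0.50, adjusted p = 0.402).

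A lymph node lies within the mouse mammary fat pad, and several of its stromal and follicular genes were at or near 0. Ccl21a, a gene with near-identical copies, was listed at 0 in every tumour, Chst4 had 1 count in all, and Madcam1 had 10 counts in Bad_WT and 19 in Bad3SA. Cr2, of follicular dendritic cells and B cells, had 19 and 6 counts, and Fcer2a had 28 and 33. The genes of this list that were tested were Cxcl13 (-1.40, SE 0.80, edgeR adjusted p = 0.398), Enpp2 (-0.78, SE 0.46, adjusted p = 0.413) and Glycam1 (0.69). Their summed level ran from 1.65 to 12.6 CPM in Bad_WT and from 2.55 to 11.7 CPM in Bad3SA. Which cells gave the RNA of these genes was not tested, so the sum is not a measure of lymph node tissue.

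Markers of other cell types gave no call between genotypes. By mean log2 CPM, Bad_WT 6 was the lowest tumour for 8 of the 9 lists of other cell types, plasma cells and lymph node stroma included. The exception was the endothelial list. Summed macrophage markers (10 of 10 tested) ran from 380 to 1142 CPM in Bad_WT and from 464 to 1096 CPM in Bad3SA, with a median log2 difference of 0.22. Cd68 was at 0.28 (SE 0.20, edgeR adjusted p = 0.487). Fibroblast markers (7 of 7 tested) ran from 292 to 2311 and from 357 to 3027 CPM, with a median of 0.29, Col1a1 at 0.66 and Col3a1 at 0.74. Bad_WT 6 was the lowest of the 12 tumours for both sums. Its summed epithelial markers, 5349 CPM, lay within the range of the other tumours, 4755 to 6947 CPM. By mean log2 CPM, though, the epithelial list was also lowest in Bad_WT 6, at 8.23 against 8.36 in Bad_WT 2, the next lowest. Adipocyte markers (6 of 6 tested) had a median of 1.80, with Fabp4 at 1.75 (SE 0.82, adjusted p = 0.313) and Retn at 1.94 (SE 1.06, adjusted p = 0.378). Their sum was 2.52 CPM in Bad_WT 6 and 168 CPM in Bad3SA 5, the tumours that were also low and high for lymphocyte genes. Dendritic, neutrophil and mast cell, and endothelial markers had medians of -0.01, 0.23 and 0.05. Their smallest p values were those of Zbtb46 (-0.45) and Clec9a (-0.53), Kit (-0.36) and S100a9 (-1.04), and Cldn5 (0.47) and Kdr (-0.21). The epithelial list, with Elf5 at 0.34 and Krt19 at -0.52, had a median of -0.01. The part of these cell types in the lymphocyte values was not tested.

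Other tests gave the same count of member calls, apart from Bcl11b above. In the authors' deposited table, 952 of 23711 genes (4.02%) had an adjusted p under 0.05 and 0 of 33 members did, with Cd3d at 0.843 toward Bad3SA (adjusted p = 0.117). DESeq2 run here called 4.81% of genes and 0 of 31 members.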

How the data were processed

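Poly(A) RNA of 12 tumours was sequenced as paired reads, per the labels. The authors deposited whole-number read counts per Ensembl gene and tumour. Tools named in the submitters' processing notes are STAR 2.7.9a, fastp 0.23.1 and DESeq2, with the build GRCm38. The counting program, its annotation and its strand option were not given in the sources used here. The authors' deposited comparison holds, per the file headers, a log2 fold change, the mean signal over normalised counts, p-values, a standard error and a Wald score. Its sign was set by comparison with the counts (Spearman rho -0.997 over 18019 genes), and only its log2 fold changes and p-values were used.

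The filter (filterByExpr, edgeR 4.0.16) kept 31 of the 33 members. Counts were normalised with TMM and tested for genotype with the robust quasi-likelihood F test, adjusting p by Benjamini-Hochberg over all genes at 0.05. CPM values are TMM-scaled, and n is the number of mice. Log2 ratios to Cd3e add 0.5 to each count and were compared by exact permutation. Correlations used 100000 resamples. The software was R 4.3.3 with limma 3.58.1 and DESeq2 1.42.0, plus matplotlib 3.10.9 and BLAST+ 2.17.0. Gene positions are those of GENCODE mouse release 21, and promoters are from RefSeq. Alternatives were other size factors, tests, filters and dispersions, end-point age, a block for the title number, and leaving out each tumour. The members and gene lists were chosen with earlier results of these data known. All members are named, and of every other list those that passed or, where none passed, the 2 with the smallest p, apart from some genes that are not reported here. Glycam1, Ccl21a, Chst4, Madcam1, Cr2, Fcer2a, Epcam, Krt8, Krt18, Csf1r, Col1a1 and Col3a1 are also named, as defining markers. Depth ran from 58096172 to 83296370 counts, and floors cover counting error only.

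Same-numbered tumours of the 2 genotypes did not deviate together (correlations from -0.263 to 0.273), so the numbers were not treated as pairs.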

Additional observations from a re-analysis of the deposited data

Results flagged for a closer look

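Among 82 sets of 6 values examined for a tumour far from the rest of its genotype, 9 were found. Chance gives about 1 in 20 for independent values with a normal spread. Most sets were CPM without logs and members share tumours, so the 9 cannot be read as an excess.

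T cell surface genes gave most of them. Cd2 was at 3.23 CPM in Bad3SA 2, above the next tumour at 1.62. Cd5 was at 1.04 CPM in Bad_WT 4 (next 0.323) and at 1.61 CPM in Bad3SA 1 (next 0.710). Cd247 was at 1.87 CPM in Bad3SA 5 (next 0.847). Cd6 was low in Bad_WT 6, at 0.147 CPM, with the next tumour at 0.366.

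Transcription factor genes gave the next group. Bcl11b was at 14.6 CPM in Bad_WT 4, above the next tumour at 3.75. Tcf7 was at 41.9 CPM in Bad3SA 1 (next 23.9), and Tbx21 at 0.439 CPM in Bad3SA 2 (next 0.306).

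The last was an NK receptor gene, Klrd1, at 1.98 CPM in Bad3SA 5 (next 0.918). The high tumour was not the same from gene to gene: Bad3SA 1, 2 and 5 and Bad_WT 4 each held 2 of the high values.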

How the results depend on the processing

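The count of 249 genes differing between genotypes became 863 with DESeq2, 579 with limma voom, 163 with at least 1 CPM in 6 tumours, 73 with end-point age and 105 with the replicate block, and 147 to 315 when each tumour was left out in turn. No T, cytotoxic or B member was called in any of these, except 1 T gene, Bcl11b, under limma voom (2.34). In 372 fits of members leaving out 1 tumour there were 0 calls, with a smallest adjusted p of 0.0852. With the replicate block the pairing of numbers changed no member's sign and no call. Only number 6 correlated best with its own number. The cytotoxic median was -0.18 with age.

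Signs turned as follows. Under limma voom Tcf7 was at 0.0013, Gzmb at -0.26 and Cd79b at -0.038, and without the filter Gzmb was at -0.026. With age, Cd2 was at -0.22, Icos -0.17, Lck 0.062, Lat -0.18, Tcf7 0.23, Ptprc -0.18, Gzmb -0.12, Klrd1 -0.58, Klrk1 -0.28, Klrb1c -0.18, Tbx21 -0.19 and Cd79b -0.65. Leaving out each tumour, or Bad_WT 6 and Bad3SA 5 together, gave ranges across 0 for Cd247 (-0.75 to 0.11), Ncr1 (-0.48 to 0.22), Gzmb (-0.27 to 0.16), Lck (-0.26 to 0.052), Ptprc (-0.076 to 0.22), Gzma (-0.036 to 0.30), Klrd1 (-0.048 to 0.82) and Cd79b (-0.15 to 0.57). Leaving out each tumour did so for the ratios to Cd3e of Cd8a (-0.051 to 0.35), Cd4 (-0.35 to 0.17), Foxp3 (-0.46 to 0.043), Nkg7 (-0.11 to 0.13), Ms4a1 (-0.59 to 0.086) and Cd79a (-0.63 to 0.17). With Cd3d as denominator the Cd8a ratio differed by -0.19. With Cd3g in place of Cd3e, the correlation of Cd4 was 0.586 and no longer passed (adjusted p = 0.0600 by permutation). With at least 1 CPM in 6 tumours no B gene was tested. The causes were not tested.

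The medians were 0.36 to 0.70 (T), 0.19 to 0.72 (cytotoxic) and 0.19 to 0.42 (B) when each tumour was left out. Differences the size of the members' errors were not detectable with 6 tumours per genotype, and 20 of the 33 members averaged under 1 CPM.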
